A study of Mus musculus with 40 samples.

Results

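The comparison described here covers the second day of Pou5f1 repression in mouse embryonic stem (ES) cells, 48 hr against 24 hr after tetracycline (Tet) was added. Its members were chosen by label alone: the 3 arrays titled 48hr and the 3 titled 24hr of the late time series of ZHBTc4 cells, which are 6 of the 18 late arrays and of 40 arrays in all. The late series also holds 3 arrays each at 0, 72, 96 and 120 hr, and an early series of the same line, with 5 times up to 24 hr, holds 2 arrays per time. The remaining 12 arrays concern Nanog and were not used.

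ZHBTc4 is a male ES cell line of strain 129/Ola in which the endogenous Pou5f1 alleles are inactivated and a transgene that Tet shuts off supplies POU5F1, so every group carries this genotype and 0 hr is the state with the transgene on. The labels call the modification a gene knock in and mark the late arrays Tc+. The treatment text deposited with the late arrays describes another line and a Tcl1 construct, so the line and treatment were taken from the titles and from the study's methods. All groups are 1 cell line. The methods give, for the early series, culture on gelatin for 2 passages to remove feeder cells and a medium with leukaemia inhibitory factor (LIF) and serum. RNA of the late series came from an earlier experiment of the same group. Replicates are numbered in the labels, but nothing says that they were separate cultures, so p-values measure the spread between these arrays, which may be technical.

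POU5F1 (Oct4) is a transcription factor that holds ES cells in the pluripotent state together with SOX2 and NANOG. ES cells that lose it turn towards trophectoderm, the outer layer of the blastocyst that gives rise to the placenta, in which GATA2, GATA3 and CDX2 are leading regulators and keratins such as KRT7 and KRT18 are typical products. FGF signalling through the kinase ERK drives ES cells out of self-renewal and induces its own inhibitors, and trophoblast cells that stop dividing use the inhibitors CDKN1C and CDKN1A as they enter endoreduplication.

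Each 2-colour array compared sample RNA (Cy3) with a reference pool of 11 mouse cell lines (Cy5). A level below is log2(Cy3/Cy5) of a probe on an array, and a change is the difference of mean levels on that log2 scale, so that 1 is a doubling. Levels of different probes cannot be set against each other. A gene was called where the adjusted p (limma, Benjamini-Hochberg over all gene probes) was at most 0.05 and the change at least 1.5-fold. Counts are over 20708 genes, each read by its brightest probe. Median signals on the 6 arrays were 606 to 702 in Cy3 and 561 to 596 in Cy5 over a local background of 365 to 390. Background is defined below by the negative control spots: a probe whose Cy3 signal lay below their 95th percentile counts as under background, as 16.3 to 25.8% of gene probes did on these arrays. Levels correlated across genes with r = 0.959 to 0.985 between arrays of the same time and 0.927 to 0.938 between 24 and 48 hr.

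The level of Pou5f1 itself was 0.01, -0.30 and 0.09 on the 24 hr arrays and -0.08, -0.01 and 0.01 on the 48 hr arrays, a change of 0.04 ± 0.11 (SE, n = 3 and 3; limma adjusted p = 0.866). The groups overlapped. The mean at 0 hr was 2.12, so the fall of Pou5f1 on these arrays lay before 24 hr, and its probe was under background on 1 of the 24 hr and 2 of the 48 hr arrays.

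Of 20708 genes, 702 were called between 24 and 48 hr (3.39%), 360 higher (1.74%) and 342 lower (1.65%). The step from 0 to 24 hr had more calls, 818 higher (3.95%) and 749 lower (3.62%), together 1567 (7.57%). Later steps had fewer and leaned towards rises. Between 48 and 72 hr 567 genes were called (2.74%), 399 higher (1.93%) and 168 lower (0.811%). Between 72 and 96 hr 279 were called (1.35%), 229 higher (1.11%) and 50 lower (0.241%), and between 96 and 120 hr 119 (0.575%), 87 higher (0.42%) and 32 lower (0.155%). The median change of all genes from 24 to 48 hr was -0.00018, the median size of a change 0.0953, and the pooled SD between replicates 0.127. The 3 arrays of 48 hr lay wholly on 1 side of the 3 of 24 hr for 6200 genes (29.9%).

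**Figure D1:**
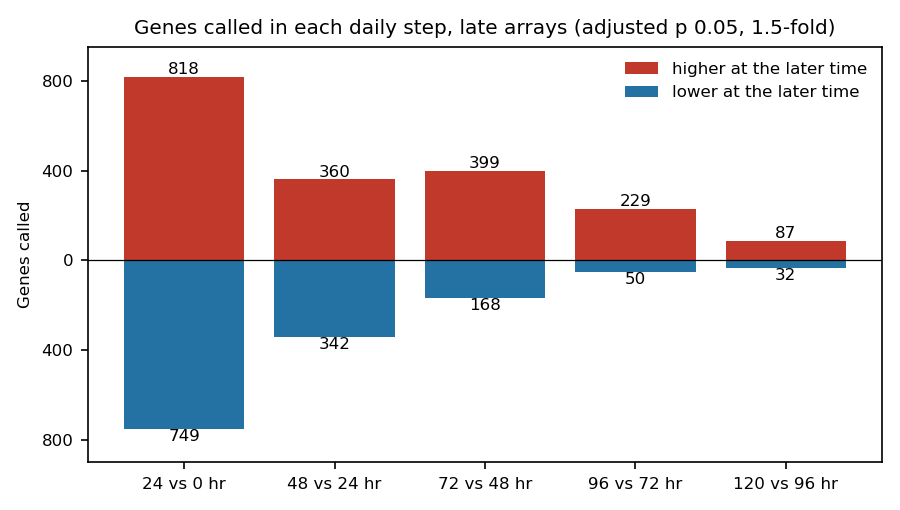
Number of genes called in each daily step of the late arrays (adjusted p at most 0.05 and 1.5-fold); bars above 0 are genes higher and bars below 0 genes lower at the later time, with 3 arrays per time. Higher and lower calls are nearly even between 24 and 48 hr (360 and 342), while rises outnumber falls in each later step.

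Of the 360 genes that rose, 300 were still called higher at 120 hr than at 24 hr (10.3% of all genes were), and of the 342 that fell, 283 were still called lower (7.09% of all genes). Both comparisons use the same 24 hr arrays and the genes were chosen on the first, so nothing is read from these counts against those percentages. Between 48 and 72 hr 120 of the 360 were called higher again and 8 lower, and 60 of the 342 were called lower again and 3 higher. The number of lower calls was 515 when 24 hr replicate 3 was left out, and without background correction of the signals the total fell to 270 calls.

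The 702 genes were divided by what they had done on the first day. New genes (222, of which 120 rose and 102 fell) had moved by less than 1.2-fold from 0 to 24 hr. Continued genes (134, of which 70 rose and 64 fell) were called in both steps with the same sign, reversed genes (116, of which 54 rose and 62 fell) in both steps with opposite signs, and 230 lay between these limits. The 48 vs 24 hr and 24 vs 0 hr differences share the 24 hr arrays, whose error enters them with opposite signs, so these counts are descriptions without a test. The early arrays give a 0 to 24 hr step that shares no array with the second day, and its values are given beside (called on it: 8.44% of 18867 shared genes higher and 2.49% lower). The number of early calls depended on the arrays and the processing. It was 2067 in the main analysis, 910 to 2758 with 1 early array left out, and 688 with a correction for Cy5 bleaching.

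Of 118 new rises with an early probe, 31 were called higher and 3 lower in the first day on the early arrays, and of 102 new falls 14 were called higher and 8 lower. Of the continued genes, 56 of 68 rises were higher and 54 of 63 falls lower there. Of 53 reversed genes that rose on the second day, 26 were lower and 27 higher on the first day of the early arrays (median 0.01), against a late median of -0.83. Of 61 reversed genes that fell, 47 were higher (median 0.41, late median 0.95). Over all shared genes 44.5% were higher on the early first day. Thus 73 of 114 reversed genes had the same first-day sign in both series, a count to be read against that split, and 30 were reversed by the call rule with either series' first day. With the early step in place of the late one, 61 genes were reversed instead of 116, and without 24 hr replicate 3 the late count was 176. Median Cy3 of the negative controls was 573 to 586 on the late 0 hr arrays and 483 to 549 on the 6 arrays used here, and its part in the late first-day values was not tested.

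**Figure D2:**
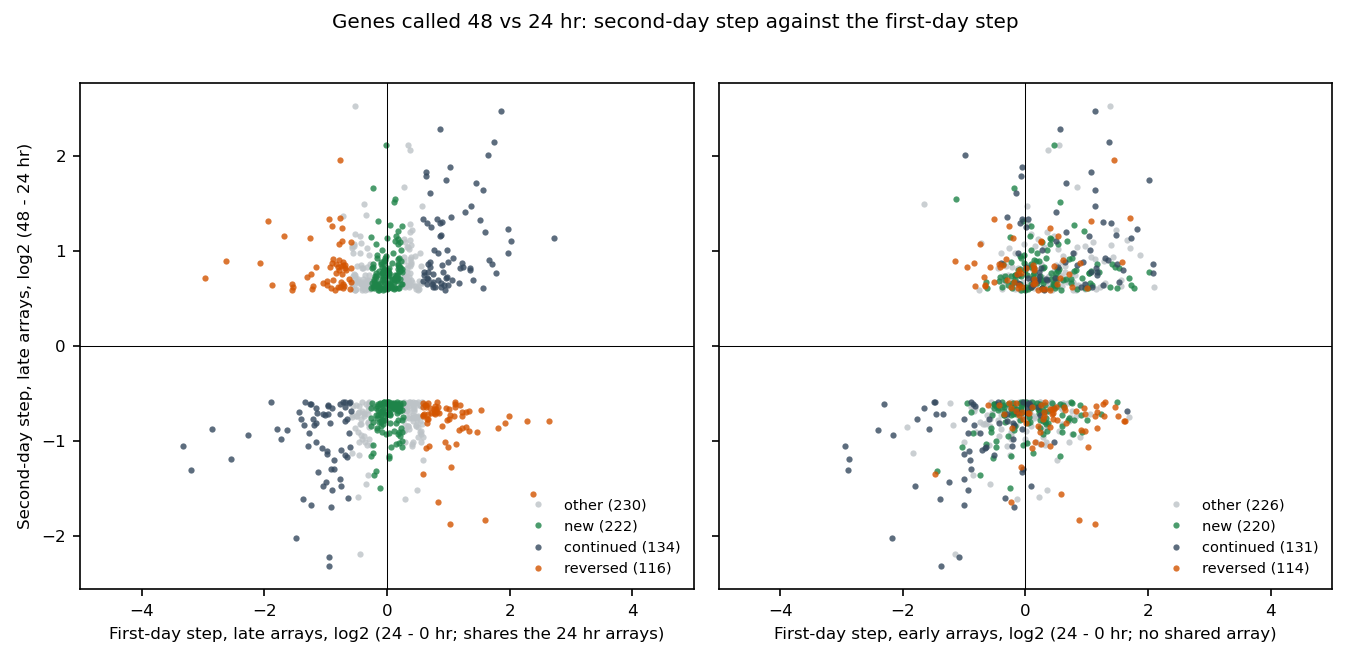
Change from 24 to 48 hr (vertical axis, log2) of the called genes against the change from 0 to 24 hr on the late arrays (left, which shares the 24 hr arrays) and on the early arrays (right, which shares none); each point is a gene, coloured by class. Reversed genes fill the upper left and lower right on the late arrays by definition, while on the early arrays 26 of 53 reversed rises and 47 of 61 reversed falls keep that side.

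The step itself was tested against its neighbours. The difference between the second-day and first-day steps was called for 2338 genes (11.3%), among them 236 of the 360 rises and 237 of the 342 falls. The difference between the second-day and third-day steps was called for 572 genes (2.76%), among them 126 of the rises and 108 of the falls. Without background correction these totals were 991 and 204. The total against the third-day step was 277 with a correction for Cy5 bleaching and 192 with the error model of the study's methods. The rises and falls were themselves chosen on the second-day step, so their counts are a description. For genes named for the size or class of that step, differences between steps are given below as descriptions with no test.

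Of 26 measured core and naive pluripotency factors 13 were called lower and none higher, against 2.76% lower and 2.18% higher among the 11386 genes with a symbol (4.94% in all). The median change of the list was -0.56, after -0.60 on the first day (early arrays -0.54). Of the 13, 10 continued a first-day fall and 3 were new by the late arrays.

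Otx2, a homeobox factor of primed pluripotency, read 2.24, 2.18 and 1.65 at 24 hr and 0.34, 0.31 and 0.41 at 48 hr, when it was under background on all 3 arrays (change -1.67 ± 0.11, adjusted p = 1.26e-08), so the size of its fall is uncertain.

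Sox2, the partner of POU5F1 on many enhancers, was not called on the first day on either array series (-0.26 late, -0.24 early) and fell on the second. It read 5.10 and 5.15 at 24 hr, where the spot of replicate 1 was an outlier and was left out, and 4.14, 3.93 and 3.82 at 48 hr, so the times did not overlap. The change was -1.16 ± 0.10 (n = 2 and 3; limma adjusted p = 1.86e-06). It fell on through 72 hr (mean 2.19) to 120 hr (1.13), and its second-day step minus its third-day step was 0.62. Gdf3, a TGF-beta family ligand of pluripotent cells, went from 2.26, 2.27 and 2.08 to 0.88, 0.80 and 0.85 (change -1.36 ± 0.06, adjusted p = 1.09e-10). It belonged to the new genes on the late arrays (-0.21) but was already down by the first day on the early ones (-0.74). The third new fall was Fbxo15, an F-box gene marking ES cells, with -0.88.

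Klf4, a Kruppel-like factor that sustains naive pluripotency, read 0.55 and 0.92 at 24 hr (replicate 1 left out as an outlier) and -0.34, -0.26 and -0.13 at 48 hr (change -0.98 ± 0.15, adjusted p = 0.000264). Its late first-day change was -1.73, but the early one was -0.19 and not called (adjusted p = 0.187). Further continued falls were Jarid2 (-1.14), Tcea3 (-1.07), Nr0b1 (-0.94), Klf2 (-0.91), Mybl2 (-0.83), Tdgf1 (-0.76) and Rif1 (-0.59). Of these, Jarid2 (-0.52, under 1.5-fold), Mybl2 (-0.18) and Rif1 (-0.44) were not called on the early first day. Nanog went from 2.62, 2.53 and 2.56 to 2.11, 2.09 and 1.90. All 3 arrays of 48 hr were lower and the change of -0.54 ± 0.11 had an adjusted p of 0.00194, but it was under 1.5-fold and so was not called. Zfp42 (Rex1) changed by -0.29 and was not called in the main analysis. Both Nanog and Zfp42 were called under 2 alternatives, without background correction and from Cy3 alone. Esrrb was under background at both times, so its change (0.12) is not interpretable.

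Of 14 germline-linked ES genes 3 were called lower and none higher (median 0.02). Tcl1, an AKT coactivator that depends on POU5F1, had lost most of its level on the first day (-3.33 late, -2.94 early) and then changed by -1.05. Dppa3 (Stella) read 1.38, 1.45 and 1.49 and then 0.56, 0.46 and 0.55 (-0.91 ± 0.07, adjusted p = 1.97e-07) and was new on the late arrays (0.04), though lower on the early ones (-0.85). Dppa5a fell by 0.91 on its brighter probe, and its other probe changed by -0.58 with an adjusted p of 0.0616. Among the largest falls of the interval were also Ooep, an oocyte-expressed gene, from 2.50, 2.74 and 2.45 to 0.17, 0.21 and 0.34 (-2.32 ± 0.09, adjusted p = 8.62e-11), and Morc1, a germ cell chromatin gene, from 1.91, 1.97 and 2.04 to -0.17, -0.39 and -0.20 (-2.22 ± 0.10, adjusted p = 1.22e-10). Their first-day changes were -0.94 and -0.95 on the late and -1.38 and -1.09 on the early arrays, and their second-day minus late first-day steps were -1.37 and -1.27. Upp1, the uridine phosphorylase that cleaves uridine to uracil, went from 3.25, 3.46 and 3.27 to a mean of 1.14 ± 0.04 (SD, n = 3) at 48 hr (-2.19 ± 0.07) after first-day changes of -0.44 (late) and -1.15 (early). Further falls among the 12 largest were Stmn2, a neuronal tubulin-binding protein (-1.61, on 2 and 3 usable arrays), the phospholipase Pla2g10 (-1.61) and the protease inhibitor A2m (-1.60).

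**Figure D3:**
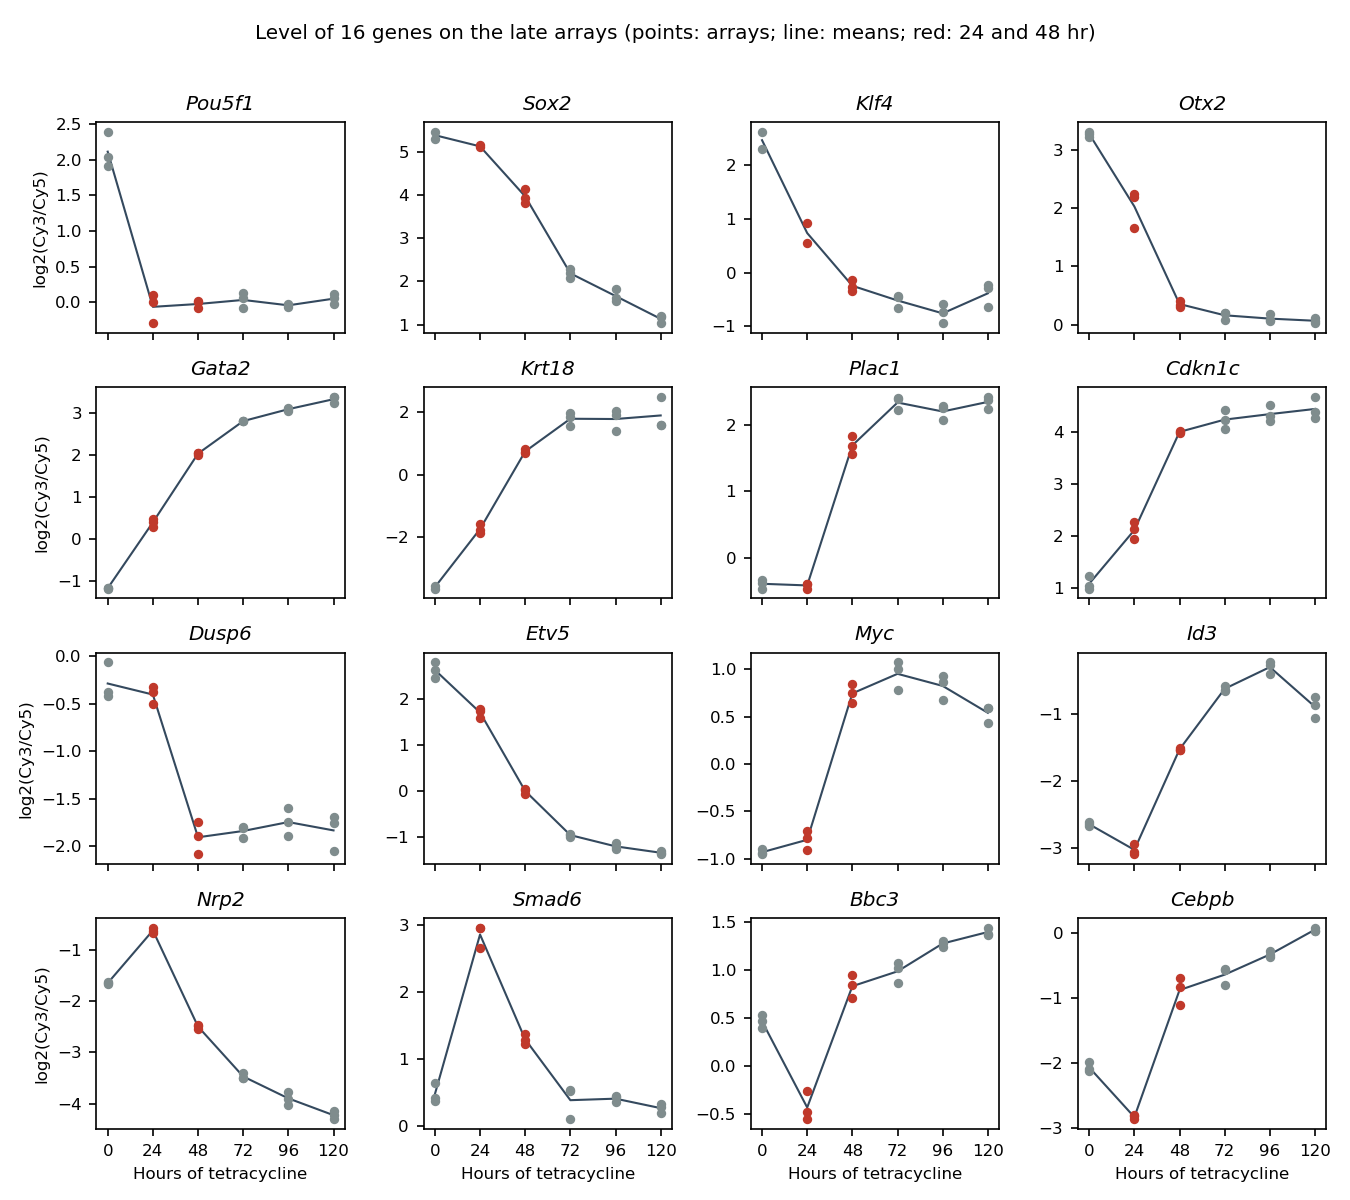
Levels (log2(Cy3/Cy5)) of 16 genes against hours of tetracycline on the late arrays; points are single arrays, lines join the means, and the 24 and 48 hr arrays are red. Pou5f1 is at its low level by 24 hr, Sox2 falls from 24 hr on, Plac1 and Myc rise after 24 hr, and Smad6 and Nrp2 rise on the first day and fall on the second.

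Of 17 measured trophectoderm transcription factors 6 were called higher and none lower (median change 0.36, first day 0.63 late and 0.25 early), and all 6 continued a first-day rise of the late arrays. Gata2 read 0.48, 0.41 and 0.29 at 24 hr and 2.01, 2.04 and 2.06 at 48 hr (1.64 ± 0.05, limma adjusted p = 3.5e-12). Its first-day rise was 1.57 (early 1.13). Its second-day step minus the late first-day step was 0.07 ± 0.09 (SE), and minus the third-day step 0.87. Gata3 went from 0.46, 0.47 and 0.49 to 1.58, 1.38 and 1.41 (0.98 ± 0.10), less than its late first-day rise of 1.98 (adjusted p of the difference = 0.000806), while the early one was 0.78. Irx3, an Iroquois homeobox factor, had the largest change of the list, from 0.61, 0.43 and 0.45 to 2.20, 2.33 and 2.47 (1.83 ± 0.08, adjusted p = 1.05e-10), after first-day rises of 0.63 (late) and 1.07 (early). Ascl2, an imprinted factor of the spongiotrophoblast lineage, rose by 0.83 (first day 1.18 late and 0.25 early, the latter not called), Arid3a by 0.80 and the placental homeobox gene Esx1 by 0.77.

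The probe for Cdx2 changed by 0.17 ± 0.13 (n = 2 and 2 after outlier spots, adjusted p = 0.465), and the study's methods describe its Cdx2 probe as unresponsive, so nothing is read from it. Hand1 changed by 0.40 (adjusted p = 0.0175), under the 1.5-fold limit.

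Of 29 trophoblast and placental products 10 were called higher and 1 lower. Krt18 went from -1.77, -1.58 and -1.85 to 0.69, 0.75 and 0.81 (2.48 ± 0.20, adjusted p = 4.55e-07), Krt19 from -1.36, -1.23 and -1.18 to 0.33, 0.52 and 0.62 (1.75 ± 0.08), and Krt7 rose by 0.87. Plac1, a placenta-specific secreted protein, was the largest new rise among genes with a symbol. It read -0.40, -0.39 and -0.47 at 24 hr, close to its 0 hr mean of -0.40, and 1.56, 1.68 and 1.84 at 48 hr (2.12 ± 0.08, adjusted p = 1.54e-11). Its early first-day step was 0.47 with an adjusted p of 0.274. Nrk, a kinase of the spongiotrophoblast that limits placental growth, rose from 1.34, 1.59 and 0.96 to 3.06, 3.00 and 3.00 (1.72 ± 0.13). The other rises were Lgals3 (1.34), Anxa1 (1.11), Rhox6 (1.11), Gsn (1.10) and Slco4a1 (0.84), and Crip1 was lower (-0.89).

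The cell type markers were checked as lists. Of 5 ES cell markers 2 were called lower and none higher (changes from -1.16 to 0.04), and of 6 trophectoderm markers 4 were called higher (0.17 to 2.48). None of 3 primitive endoderm markers was called (0.02 to 0.36), although Gata6 (0.33, adjusted p = 0.00659) and Dab2 (0.36, adjusted p = 0.0146) lay under the fold limit. None of 5 feeder fibroblast markers was called (-0.02 to 0.13) or had an unadjusted p under 0.05, with Postn and Thy1 under background on all 6 arrays. In bulk RNA a change in the share of cells of a type and a change in RNA per cell cannot be told apart.

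Primitive and visceral endoderm genes had 2 members of 22 called lower and none higher (median -0.04). The called members were Amn, the amnionless subunit of the cubilin receptor, and Apoe, the lipid carrier apolipoprotein E. Apoe continued down, from 2.40, 2.57 and 2.41 to 0.87, 0.89 and 1.07 (-1.52 ± 0.07, adjusted p = 1.79e-10). Imprinted genes included 3 rises of 24 and no fall (median 0.22, 19 of 24 positive).

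The largest rise of all genes with a symbol was that of Hmgn5, an X-linked nucleosome-binding protein, from -3.15, -3.19 and -3.10 to -0.72, -0.62 and -0.53 (2.53 ± 0.08, adjusted p = 2.38e-12). The late arrays had it down on the first day (-0.53) and the early arrays up (1.38). Ldoc1, a retrotransposon-derived X-linked gene, rose from 0.49, 0.46 and 0.61 to 2.67, 2.57 and 2.54 (2.07 ± 0.10, adjusted p = 2.9e-10). Ndrg1, a hypoxia- and differentiation-responsive gene, rose by 1.79 ± 0.05 after first-day changes of 0.64 (late) and -0.08 (early, adjusted p = 0.553), whereas Pfkp, the platelet-type phosphofructokinase, fell by 1.59 ± 0.09. They belong to the glycolysis and hypoxia list (2 of 29 higher, 1 lower, median 0.01).

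Among the signalling pathways, FGF-ERK genes moved both ways, with 4 of 27 higher and 6 lower (median 0.01), and 5 of the 10 were new. Dusp6, the phosphatase that dephosphorylates ERK, was not called on the first day (-0.12 late, -0.24 early) and went from -0.32, -0.51 and -0.38 to -2.08, -1.75 and -1.89 (-1.50 ± 0.11, adjusted p = 8.05e-08). Its second-day step minus the first-day step was -1.38 and minus the third-day step -1.57, and its mean was -1.83 at 120 hr. Etv5, an ETS factor induced by FGF, fell from 1.77, 1.58 and 1.74 to -0.06, 0.03 and 0.03 (-1.70 ± 0.07, adjusted p = 1.05e-10). Its first-day change was -0.92 on the late arrays and -0.18, not called, on the early ones. The remaining falls were Ier2 (-1.29), an immediate early gene, Etv4 (-0.997), the partner of Etv5, and the pathway inhibitors Spred2 (-0.90) and Spry4 (-0.86).

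The 4 rises of the list were Fgfbp1, Myc, Jun and Fos. Fgfbp1, a carrier that releases FGFs from the matrix, went from 1.46, 1.53 and 1.31 to 3.39, 3.47 and 3.48 (2.02 ± 0.09, adjusted p = 1.76e-10), and its early first-day step was opposite in sign to the late one (-0.98 against 1.64). Myc read -0.91, -0.71 and -0.79 at 24 hr, near its 0 hr mean of -0.93, and 0.64, 0.75 and 0.84 at 48 hr (1.55 ± 0.08, adjusted p = 1.74e-09), while the early arrays had it down by the first day (-1.13). Its second-day step minus that of the third day was 1.34. Jun rose by 1.30 after a first-day rise of 0.86 (early 1.39), and Fos rose by 0.71 after -2.97 on the late first day and 0.56 on the early one.

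**Figure D4:**
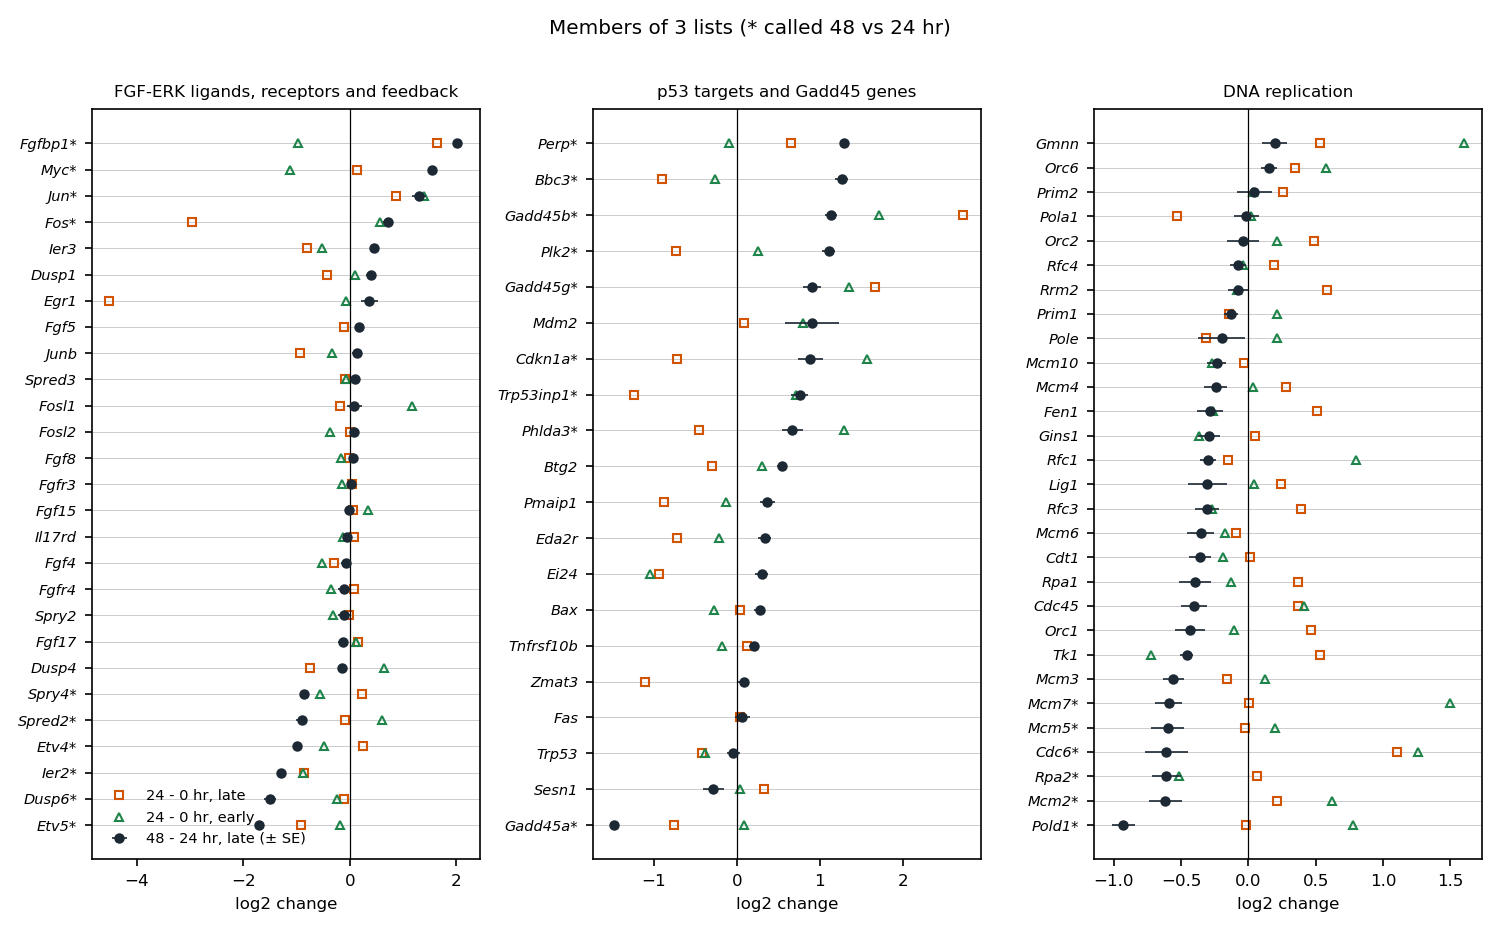
Log2 change of measured members of 3 gene lists from 24 to 48 hr (filled circles with SE) and from 0 to 24 hr on the late (open squares) and early arrays (open triangles); asterisks mark members called between 24 and 48 hr. The 6 called falls of the FGF-ERK list, from Etv5 to Spry4, are at its low end, 8 of 20 p53 and Gadd45 genes are called higher, and 26 of the 29 DNA replication genes drawn lie below 0.

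Nodal and TGF-beta genes included 4 falls and 1 rise of 27 (median -0.02). Besides Gdf3 and Tdgf1, the Nodal co-receptor Cripto, these were the antagonist Lefty1 (-0.88 ± 0.08) and the activin subunit Inhbb (-1.43 ± 0.14). Both were under background on all 48 hr arrays, and their falls in Cy3 alone were 1.77-fold and 1.36-fold. Such Cy3 folds, here and below, are estimates and not lower limits, and without dye swaps they are open to dye bias. A second Tdgf1 probe gave -1.98, so its size is uncertain. Fstl1, a follistatin-like protein, rose by 0.59. BMP genes gave 1 rise and 1 fall of 26. Id3, the inhibitor of differentiation that BMP induces, went from -3.05, -3.09 and -2.93 to -1.51, -1.54 and -1.54 (1.49 ± 0.07, adjusted p = 2.9e-10) after first-day changes of -0.38 (late) and -1.65 (early). Smad6, the inhibitory SMAD, went from 2.95, 2.96 and 2.66 to 1.22, 1.29 and 1.36 (-1.56 ± 0.11, adjusted p = 2.85e-08). Smad6 had risen by 2.38 on the first day of the late arrays and by 0.59 on that of the early ones. Of 35 Wnt genes 1 was called: Dkk1, the secreted Wnt antagonist, rose from 0.69, 0.84 and 0.70 to 2.85, 3.18 and 3.08 (2.29 ± 0.11, adjusted p = 6.1e-10). It had risen by 0.86 (late) and 0.56 (early) on the first day, and its mean was 2.66 at 72 hr.

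Genes that p53 induces, listed with the Gadd45 genes, had 8 rises and 1 fall of 20 (median 0.46, 17 of 20 positive), after a late first-day median of -0.44 and an early one of 0.06. Of the 8 rises, 4 reversed a first-day fall of the late arrays and 3 continued a first-day rise there. On the late first day 3 members were called higher and 9 lower, but on the early one 6 of 18 were called higher and 1 lower. The reversal thus depends on the series. Bbc3 (Puma), a killer protein of the BCL2 family, read -0.56, -0.48 and -0.26 at 24 hr and 0.70, 0.84 and 0.95 at 48 hr (1.26 ± 0.08, adjusted p = 8.76e-09). Its first-day change was -0.90 on the late arrays and -0.27 on the early ones, the latter not called (limma adjusted p = 0.184). Perp, a p53 effector and desmosome protein, went from -1.23, -1.18 and -1.20 to 0.06, 0.10 and 0.11 (1.29 ± 0.05, adjusted p = 1.35e-11). Gadd45b rose by 1.13, Plk2 by 1.10, Gadd45g by 0.90, Trp53inp1 by 0.76 and Phlda3 by 0.67. Gadd45a went against its relatives, from -0.43, -0.44 and -0.41 to -1.88, -1.91 and -1.92 (-1.48 ± 0.04, adjusted p = 2.38e-12).

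Of the G1 and cyclin-dependent kinase list 3 of 22 members rose and 2 fell (median -0.05), and besides Myc the rises were of kinase inhibitors. Cdkn1c (p57), the imprinted inhibitor of trophoblast giant cells, went from 2.27, 2.12 and 1.93 to 4.01, 3.98 and 4.00 (1.89 ± 0.12, adjusted p = 7.96e-09) and had a mean of 4.44 at 120 hr (0.44 ± 0.12 above 48 hr, adjusted p = 0.00675). Its first-day change was 1.03 on the late arrays and -0.06 on the early ones, the latter not called, so whether it continued depends on the series. Cdkn1a (p21) went from -0.98, -1.05 and -1.36 to -0.15, -0.21 and -0.39 (0.88 ± 0.15, adjusted p = 0.000502). It had been called lower on the late first day (-0.72) and higher on the early one (1.57), so whether it reversed depends on the series. Ccne1, which drives entry into S phase, fell by 0.62 after a called late first-day rise and an early first-day value of -0.61. Ccnd1 was called lower on 1 usable array per time (-0.69), so its call has no replicates of its own and leans on the spread at other times and of other genes. It was lost under 5 of the alternatives, and its other probe was not called (-0.23).

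Of 30 measured DNA replication genes 27 were negative and 7 were called lower, none higher (median -0.31), after medians of 0.23 on the late and 0.04 on the early first day. The median level of the list was 0.804 to 1.15 on the 24 hr arrays and 0.786 to 0.850 on the 48 hr arrays, so these medians overlapped, and 24 hr replicate 3 read lowest of its time for the called members named here. Leaving out 1 of the 6 arrays gave a median change of -0.41 to -0.25. Pold1, the catalytic subunit of DNA polymerase delta, went from 1.00, 1.11 and 0.67 to 0.02, -0.04 and 0.01 (-0.93 ± 0.09, adjusted p = 9.69e-07). Smaller falls were those of Mcm2 (-0.62), Mcm5 (-0.60) and Mcm7 (-0.59) of the MCM helicase and Rpa2 (-0.61) of the single-strand binding protein. Cdc6, which loads the helicase, fell by 0.61 after first-day rises of 1.11 (late) and 1.26 (early). Several of these lie close to the 1.5-fold limit, which is 0.58 on the log2 scale, and the calls of Mcm2 and Rpa2 were lost under 3 alternatives each, of which 2 left out a single array (24 hr replicate 1 or 48 hr replicate 1 for Mcm2, 24 hr replicate 1 or 2 for Rpa2). The calls of Mcm5, Mcm7 and Cdc6 were not followed singly through the alternatives. The third-day median of the list was -0.26, with 2 members called lower. Mitosis genes were called in 1 of 29 cases, Cenpe, a kinesin of the kinetochore (0.60), with a median of -0.12, and this call was lost under 6 alternatives, among them leaving out 24 hr replicate 1, 48 hr replicate 2 or 48 hr replicate 3.

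Many replication genes carry sites of the E2F factors in their promoters, and promoter windows were searched for the letters TTTGGCGC, TTTCCCGC, TTTCGCGC and TTTGCCGC on both strands. Windows ran from 250 bases before to 50 after the start in RefSeq, GRCm38.p6. At least 1 match was found in 626 of 27025 promoters (2.32%), in 321 of 8916 of tested genes (3.6%), in 10 of 24 of measured replication genes (41.7%), in 4 of the 6 called ones that had a window (66.7%), and in 1 of 22 mitosis genes (4.55%). The windows of Mcm7, Cdc6 and Pold1 are printed 5′ to 3′ on the gene's strand, with the matches in capitals, to show the letters behind these counts. A match is a description of the sequence and not a measured binding site.
Mcm7 (chr5:138171834-138172133, minus strand): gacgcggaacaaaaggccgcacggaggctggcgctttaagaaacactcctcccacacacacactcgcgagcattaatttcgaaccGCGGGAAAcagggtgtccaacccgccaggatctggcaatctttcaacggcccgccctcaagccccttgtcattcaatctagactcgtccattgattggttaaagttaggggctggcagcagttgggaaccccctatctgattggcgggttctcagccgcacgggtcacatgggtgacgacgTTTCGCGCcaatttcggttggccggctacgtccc
Cdc6 (chr11:98907901-98908200, plus strand): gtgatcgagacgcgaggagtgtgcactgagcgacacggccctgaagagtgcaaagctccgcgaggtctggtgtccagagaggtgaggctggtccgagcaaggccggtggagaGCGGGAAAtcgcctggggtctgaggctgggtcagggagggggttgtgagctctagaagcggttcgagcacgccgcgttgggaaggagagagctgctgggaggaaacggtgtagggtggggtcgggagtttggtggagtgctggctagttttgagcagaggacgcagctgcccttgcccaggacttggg
Pold1 (chr7:44548766-44549065, minus strand): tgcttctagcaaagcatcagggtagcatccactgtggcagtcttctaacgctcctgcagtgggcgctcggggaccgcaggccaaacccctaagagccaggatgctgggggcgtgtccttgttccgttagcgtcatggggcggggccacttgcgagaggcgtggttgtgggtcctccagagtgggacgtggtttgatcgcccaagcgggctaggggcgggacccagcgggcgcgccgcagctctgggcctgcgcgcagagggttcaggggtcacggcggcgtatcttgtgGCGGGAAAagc
Mcm7 holds 2 matches, at -165 and 17 from the start, Cdc6 1 at -138 and Pold1 1 at 40.

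The actin cytoskeleton list had 8 rises of 35 and no fall (median 0.21), with a third-day median of 0.62. Its 5 annexin and S100 members were Anxa3 (1.36, on 2 and 3 usable arrays), Anxa2 (1.26), S100a11 (1.21), Anxa1 (1.11) and Anxa5 (0.94), joined by Tagln2 (1.16, on 2 and 1 usable arrays, the lone 48 hr array being assumed to vary like the others), the actin-severing protein Gsn (1.10) and Tpm2 (0.62). Anxa3 had first-day changes of 1.05 (late) and -0.31 (early). Anxa2 read -3.63, -3.57 and -3.87 at 24 hr and -2.50, -2.34 and -2.43 at 48 hr (1.26 ± 0.09, adjusted p = 6.14e-08), and it rose by 3.80 in all between 24 and 120 hr. Further new rises were LOC666185 (1.66), Rhbdf1, a regulator of growth factor shedding (1.16, on 2 and 3 usable arrays), the natriuretic peptide Nppb (1.15) and the immediate early gene Ier5 (1.14). New falls were Plekha4 (-1.32), Tmem64 (-1.18), Lrp11 (-1.16), the adenylate kinase Ak1 (-1.12) and the corepressor Tle4 (-1.06). Plekha4 had a change of -1.44 on the first day of the early arrays. Among continued genes outside the lists, the Hedgehog effector Gli2 fell by 1.33 (late first day -1.12, early -0.06) and the ephrin receptor Epha4 by 1.07.

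For some reversed genes both series had the same first-day sign. Nrp2, a semaphorin and VEGF receptor, rose on the first day (1.03 late, 1.14 early) and then went from -0.67, -0.63 and -0.57 to -2.48, -2.47 and -2.54 (-1.87 ± 0.06, adjusted p = 3.5e-12), below its 0 hr mean of -1.65. Amn rose by 1.59 (late) and 0.87 (early) and then fell from 2.06, 2.41 and 2.42 to 0.47, 0.50 and 0.43 (-1.83 ± 0.08, adjusted p = 1.46e-10), again to below 0 hr (0.71). Lix1 rose by 0.99 (late) and 1.02 (early) and then was under background on all 48 hr arrays, a fall of 1.76-fold in Cy3 alone. In the other direction Myof, a ferlin of membrane repair, changed by -2.62 (late) and -1.15 (early) on the first day and regained 0.90 ± 0.08 (adjusted p = 9.69e-07), from -3.32, -3.20 and -3.47 to -2.50, -2.35 and -2.45, and its third-day change was 2.10. Lgals3, galectin 3, went from -2.92, -2.88 and -2.94 to -1.58, -1.57 and -1.55 (1.34 ± 0.09) after -0.95 (late) and -0.51 (early). Slco4a1, an organic anion transporter, rose by 0.84 after -1.15 and -0.95. Myl4 (0.86) and Arhgef3 (0.84) rose after -0.83 and -0.92, with early values of -0.43 and -0.59, and LOC244061 (0.83) after -0.80 and -0.42. The 24 hr level of Arhgef3 was under background on all 3 arrays, and its rise in Cy3 alone was 1.45-fold.

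For other reversed genes the early first-day value was small or of opposite sign. Ctnnal1, an alpha-catenin-like protein, fell by 1.64 after a late rise of 0.84 and an early change of -0.24. Tfpi, an inhibitor of coagulation, fell by 1.27 after 1.04 and -0.07. Klhl21, Ddah1 and Ube2a (-1.03, -1.02 and -0.90) had late first-day rises of 1.13, 0.95 and 1.46 and early ones of 0.25, 0.15 and 0.24, with 2 usable arrays of Ube2a per time. Cebpb, a basic leucine zipper factor used in trophoblast, went from -2.83, -2.81 and -2.87 to -1.11, -0.82 and -0.69 (1.96 ± 0.09, adjusted p = 1.76e-10) after -0.77 on the late first day and 1.45 on the early one. Dusp16 rose by 1.14 after -1.25 and -0.20.

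Cholesterol synthesis and the amino acid response had many first-day calls on the late arrays and few on the second day. Cholesterol synthesis genes had 11 rises of 20 and a median of 0.73 from 0 to 24 hr on the late arrays (early 0.06) and 1 fall on the second day, that of Pmvk (-0.70 on 2 and 3 usable arrays, list median -0.05). Amino acid response and endoplasmic reticulum stress genes had 17 falls and 4 rises of 25 on the late first day, with a median of -1.186 against 0.10 on the early arrays. From 24 to 48 hr they had a median of -0.06 and 2 rises, Cebpb and Atf3 (0.83, under background at 24 hr, 1.44-fold in Cy3 alone).

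Chromatin repressors and DNA methylation genes had 3 falls of 31 and a median of -0.13 (-0.22 to -0.098 with 1 array left out). These were Jarid2, a subunit of Polycomb complex PRC2, Tet1, the 5-methylcytosine dioxygenase (-0.84 ± 0.14, from 2.91, 2.95 and 2.67 to 2.40, 1.92 and 1.70), and Trim28, the corepressor KAP1 (-0.78 ± 0.13). Tet1 and Trim28 were new. Epithelial junction genes had 2 rises (Perp and Pkp2) and 1 fall of 27, that of Jam2 (-1.31 after -3.20). Jam2 was under background on all 48 hr arrays and 1.82-fold lower in Cy3 alone. Matrix genes had 3 rises and 3 falls of 32, with Serpine2 (0.73) and Itgb1 (0.68) among those up and Spp1 (-0.87), Col18a1 (-0.85) and Htra1 (-0.81) down. Lysosome genes had 2 rises, Ctsl (0.77) and Gaa (0.67), and the fall of Laptm4b (-0.71) among 30.

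None of 48 cytosolic ribosomal proteins, 44 respiratory chain genes or 16 feeder fibroblast markers was called by limma (medians -0.01, -0.08 and -0.02), while 13, 16 and 2 of them had an unadjusted p under 0.05, as did 34.3% of the genes with a symbol. Leaving out 1 array gave medians of -0.148 to -0.049 for the respiratory chain. Ribosome biogenesis had 1 fall of 32 (Wdr74), interferon and antigen presentation genes the rise of B2m (0.67) and the fall of Ifitm1 (-1.01) among 23, and the epiblast, germ layer and early neural list 2 falls of 22, Stmn2 (-1.61) and Tubb3 (-0.69). B2m was also the 1 call among 10 reference genes.

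**Figure D5:**
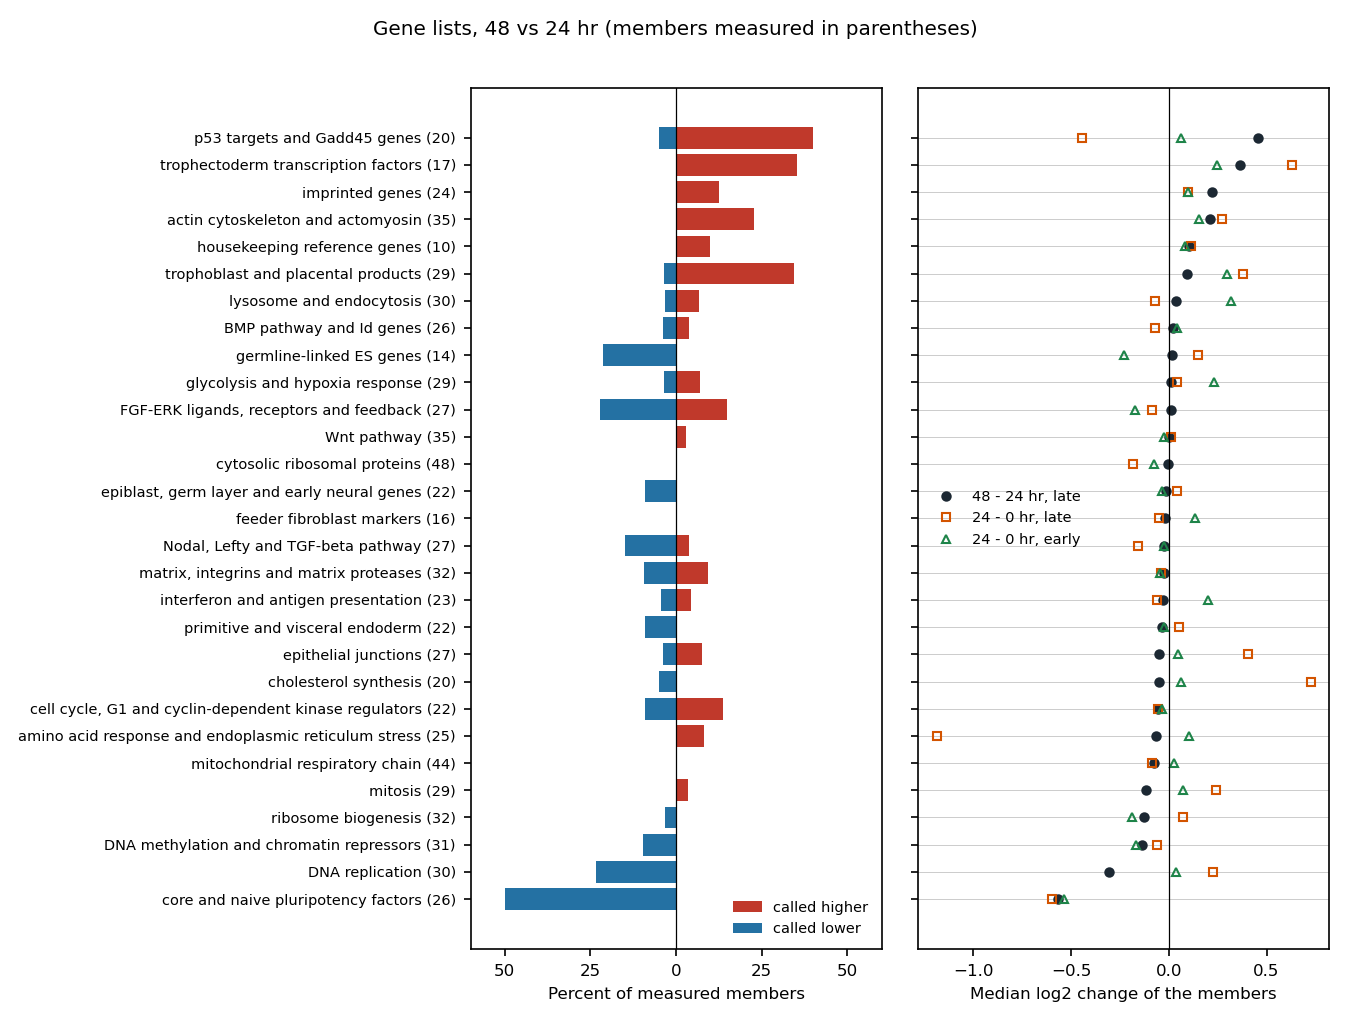
Left, percent of the measured members of 29 gene lists called higher or lower from 24 to 48 hr; right, median log2 change of each list from 24 to 48 hr (circles) and from 0 to 24 hr on the late (squares) and early arrays (triangles). Pluripotency factors have the lowest median (-0.56) and the p53 list the highest (0.46), and the late and early first-day medians part most for the amino acid list (-1.186 and 0.10).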

How the data were processed

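The study compared time points of Pou5f1 repression on 2-colour arrays. The 18 late arrays (NIA Mouse 22K Microarray Dev2) carried this comparison, and the 10 early arrays gave the first-day values. The authors deposited scanner output made with Agilent Feature Extraction (7.5.1 per the file headers), of which the mean and background intensity of each spot in both channels were used. A deposited table of processed values holds log10 Cy3 levels (correlation with each array's own log10 Cy3 0.942 to 0.970, column medians 2.91 to 2.98, centring not given in the sources used here) and served as an alternative. The authors corrected for Cy5 bleaching and took as error variance the larger of a gene's own and the average over 500 genes of similar intensity, and both were tried as alternatives.

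Here intensities were corrected with normexp (offset 50), and log2(Cy3/Cy5) was normalised within each array by loess in limma 3.58.1 (R 4.3.3; data.table, version 1.17.8). Control spots had weight 0, outlier spots were left out, and saturated spots were kept. All 18 late arrays were fitted together with lmFit and eBayes (the 6 times as groups, no covariate), and p-values were adjusted by Benjamini-Hochberg. The scripts were tested on simulated data with known changes. Of 21052 gene probes 11720 had a symbol, 10422 through a RefSeq accession and 1298 through probe names in the study's tables, and 9332 had none and were kept singly. A gene is its brightest probe. Early values came from 19184 probes of identical sequence. Where a probe was under background on all 3 arrays of a time, a fold was computed from Cy3 after loess and Aquantile. Its values at that time were raised to the lowest level of any probe not under background on the array, where they lay below it. That level need not be the background limit, so the fold is an estimate without an error and not a bound. The precision is limited by the number of arrays.

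The members and gene lists were chosen with earlier results of these data known. Genes were named by rule: the 12 largest rises and falls, the 8 largest new ones, the 8 reversed and 6 continued ones per direction with the largest smaller step, up to 4 called members per list, and defining markers. Other called list members are given to complete their list, and were chosen after their values were seen. Single values of some members are not reported here. Alternatives covered background correction, normalisation, probe choice, fit and left-out arrays. No columns of the authors' own comparisons were used.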

Additional observations from a re-analysis of the deposited data

Results flagged for a closer look

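For 24 named genes called in both steps with opposite signs, the second-day step was tested against the first-day step on the late arrays, and the difference was called in each. The genes were chosen for steps of opposite sign, which fixes a large difference, so the values are a description and the calls carry no information of their own. The steps share the 24 hr arrays, so a deviation of those arrays would appear in both with opposite sign, and its part in these differences was not tested. The differences of the log2 steps were -3.95 for Smad6, -3.42 for Amn, -2.90 for Nrp2, -2.72 for Htra1, -2.48 for Ctnnal1, -2.36 for Ube2a, -2.32 for Tfpi, -2.16 for Klhl21, -2.14 for Col18a1, -2.05 for Lix1, -1.99 for Tubb3, -1.96 for Ddah1 and -1.91 for Pmvk, which fell on the second day. They were 1.52 for Atf3, 1.61 for Cdkn1a, 1.63 for LOC244061, 1.69 for Myl4, 1.76 for Arhgef3, 1.99 for Slco4a1, 2.16 for Bbc3, 2.29 for Lgals3, 2.39 for Dusp16, 2.73 for Cebpb and 3.52 for Myof, which rose. Atf3 and Arhgef3 were under background on all 24 hr arrays and Lix1 on all 48 hr arrays, so their values rest on dim signals and their sizes are uncertain. Groups of 3 arrays are too small for the test of single outlying arrays.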

How the results depend on the processing

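Among the alternatives for which signs were compared, no called gene that was present changed sign. Of the 702 called genes, 657 were present in the deposited table of processed values and 699 with dim probes removed. Without background correction the counts were 270 called, 146 higher, 124 lower, 86 new, 58 continued and 40 reversed, with 991 differences from the first-day step, 204 from the third-day step and 820 early first-day calls. The difference from the third-day step was called for 277 genes with the Cy5 bleaching correction and 192 with the methods' error model, against 572. Early first-day calls, 2067 in the main analysis, were 688 with the bleaching correction and 1164 from Cy3 alone, which also gave 201 continued genes. Leaving out 1 of the 24 or 48 hr arrays (for the classes, 1 of the 0 hr arrays too) gave 664 to 861 called, 342 to 405 higher, 292 to 515 lower, 211 to 264 new, 123 to 139 continued and 104 to 176 reversed, and leaving out 1 early array 910 to 2758 early calls. The first-day step from the early arrays, chosen after seeing the data like the other additions, gave 61 reversed genes. Residuals of same-numbered arrays correlated weakly (0.0855, 0.0646 and 0.0332 at 24 and 48 hr, and 0.151 as the mean over same-numbered arrays of all times). The main fit leaves this weak pairing out, and with the replicate block 712 genes were called, 366 higher and 346 lower. Of the alternatives for named genes 1959 kept direction and call, 48 lost the call, 4 gained it and 14 uncalled values changed sign, and most losses came without background correction. Among the 1959 are 113 from Aquantile between arrays, which could not differ and carry no information. Leaving out 1 of the 6 arrays turned the sign of a list's median or moved it by over 1.5 times for 22 of 29 lists, and did neither for pluripotency factors, trophectoderm factors, p53 and Gadd45 genes, DNA replication, actin, imprinted and mitosis genes. Aquantile changes no ratio and so no count. Slide or scan batch was not run, since no batch is given. Dim signals limit genes near background, of which 2818 were under it on all 6 arrays (0 called by limma).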

Other observations

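Replication-dependent histone genes, which cells express in S phase, were looked at after their values were seen. Of 44 measured genes of the histone clusters 32 were lower at 48 than at 24 hr and 9 were called lower. Among all genes with a symbol 2.76% were called lower and 2.18% higher. As the set was picked for its values, its counts are a description. Of the called genes 7 had moved by less than 1.2-fold on the late first day. The median change was -0.36, after 0.10 on the late and 0.17 on the early first day, and the third-day median was -0.17. H1f1 changed by -0.66 and H1f4 by -0.80 among the called falls, and 1 gene, H1f2, was called higher (0.90). Near-identical members of this family can share signal on a probe, so the single genes are uncertain.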
